A study of Homo sapiens with 6 samples.

Results

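ATF4, ATF5, TRIB3, CHAC1, SESN2, PPP1R15A, DDIT4, NUPR1, VLDLR and STC2 are the 10 genes described here. They encode the transcription factor ATF4 of the integrated stress response, its relative ATF5, and 8 effectors that act with or downstream of them. They were taken by symbol from the 35052 genes to which the transcripts of the files could be joined, with no threshold on a measured value. The choice was made with earlier results of these data known, so their counts beside those of all genes are a description. EoL-1 is a human cell line from an eosinophilic leukaemia, grown here in serum-supplemented RPMI medium with no stress agent named in the labels. Polyadenylated RNA was sequenced from 3 libraries of wild-type cells and 3 of cells edited at ATF3 with CRISPR/Cas9, named ATF3 knockout after the labels. The study's title concerns eosinophils and adipose angiogenesis, and the single comparison is knockout against wild type. The sources used here do not give whether replicates are separate cultures or clones, or whether the knockout is 1 clone; the series' design text calls it a knockdown. The p-values therefore measure the spread between these libraries, which may be technical.

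In the integrated stress response, kinases that sense amino acid shortage, misfolded protein, viral RNA or haem lack phosphorylate the translation factor eIF2. General protein synthesis then slows, while upstream reading frames in the ATF4 and ATF5 mRNAs let these 2 factors be translated more. ATF4 pairs with C/EBP-type partners and raises genes for amino acid supply, and a feedback arm that includes PPP1R15A and TRIB3 restrains the response. Because ATF4 and ATF5 are set at translation as well, an mRNA level is not a measure of their protein.

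The promoters of CHAC1 and PPP1R15A are shown because they are the members whose windows held a searched motif. The sequences are from RefSeq on GRCh38.p14, reach from 250 bases before a transcription start to 50 bases after it in the RefSeq tables, and run 5′ to 3′ on the plus strand.
CHAC1, chr15:40953221-40953520, capitals at the composite C/EBP-ATF motif: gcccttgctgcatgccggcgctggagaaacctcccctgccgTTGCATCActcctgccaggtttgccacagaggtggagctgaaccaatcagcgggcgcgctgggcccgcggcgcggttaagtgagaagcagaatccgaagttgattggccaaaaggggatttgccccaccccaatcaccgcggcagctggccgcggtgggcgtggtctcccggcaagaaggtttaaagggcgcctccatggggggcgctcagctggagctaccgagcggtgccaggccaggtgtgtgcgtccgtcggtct
PPP1R15A, chr19:48872171-48872470, capitals at the cAMP response element (CRE): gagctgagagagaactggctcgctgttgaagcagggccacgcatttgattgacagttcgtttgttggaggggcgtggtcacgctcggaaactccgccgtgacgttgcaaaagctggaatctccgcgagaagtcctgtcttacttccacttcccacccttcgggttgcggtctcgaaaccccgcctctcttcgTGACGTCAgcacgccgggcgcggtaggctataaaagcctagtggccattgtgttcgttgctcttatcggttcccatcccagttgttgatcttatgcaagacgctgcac
The composite motif was searched as TGATGNAA and the CRE as TGACGTCA, on both strands, and the 2 do not overlap in these windows. The CHAC1 match is on the minus strand and begins at position -209 from the start, and the PPP1R15A match begins at -58. Of the members, 9 had RefSeq windows, 14 windows in all, and NUPR1 had none. Of these 9, CHAC1 alone held TGATGNAA and PPP1R15A alone held TGACGTCA. Among all 35116 windows of this length, 3.62% held TGATGNAA and 1.85% held TGACGTCA. Counted by gene, TGATGNAA stood in a window of 4.46% of 27305 genes and in 25 of 109 genes (22.9%) of the lists of the eIF2-ATF4 pathway used below. TGACGTCA stood in 2.25% of all genes and in 1 of the 109 (0.9%). A match is a description of letters, and motifs outside these windows were not searched.

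The libraries held between 26766103 and 30117281 estimated reads. ATF3, the edited gene, had 634, 462 and 632 reads across wild-type replicates 1 to 3, against 146, 229 and 132 across those of the knockout, so its mRNA was lower but present in the libraries labelled knockout. On the first principal component of log2 expression, wild-type replicate 2 (-13.5) lay between the other wild-type libraries (-37.9 and -34.9) and the knockout libraries (21.0 to 35.5). Of 12 eosinophil markers 3 passed the filter on low counts, PRG3, CLC, IL5RA and GATA1 had no read in any library, and EPX stayed at or under 0.0769 CPM (a read count scaled to library size, the level used below). The summed eosinophil markers, carried by RNASE2 and RNASE3, were 37.3 to 52.6 CPM in wild type against 118 to 184 CPM in knockout, so they moved with the groups, and their part in the results was not tested. Lists of stromal, endothelial, erythroid and epithelial markers each summed to at most 0.401 CPM in any library, and lymphocyte markers to between 4.85 and 7.48 CPM. In bulk RNA, fewer cells of a type and less RNA per cell cannot be told apart.

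Of the 10 genes, 9 were lower in knockout and 1, NUPR1, did not pass the test. ATF5 and TRIB3 had the largest falls among the well-expressed members, STC2 fell from a level already near the detection limit, and ATF4 itself had the smallest fall that passed. The test was edgeR's quasi-likelihood test over 13131 genes at an adjusted p of 0.05. All 10 members passed the filter on low counts. STC2 passed it through its wild-type reads alone (21, 21 and 58, against 2, 0 and 3 in knockout). Its fall is therefore not independent of the filter. With no filter STC2 was also called lower (log2 fold change -4.22, edgeR adjusted p = 0.012). Of all tested genes 21.1% were called, 9.72% as lower and 11.4% as higher. In the same 9 members every knockout library lay below every wild-type library, as it did in 21.4% of tested genes. The median log2 fold change (knockout minus wild type) was -1.30 over the members and 0.01 over all tested genes. An exact two-sided permutation test of a single gene gives at least 0.1 with 3 against 3 libraries, and it gave 0.1 for each of the 9 and 0.9 for NUPR1.

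**Figure D1:**
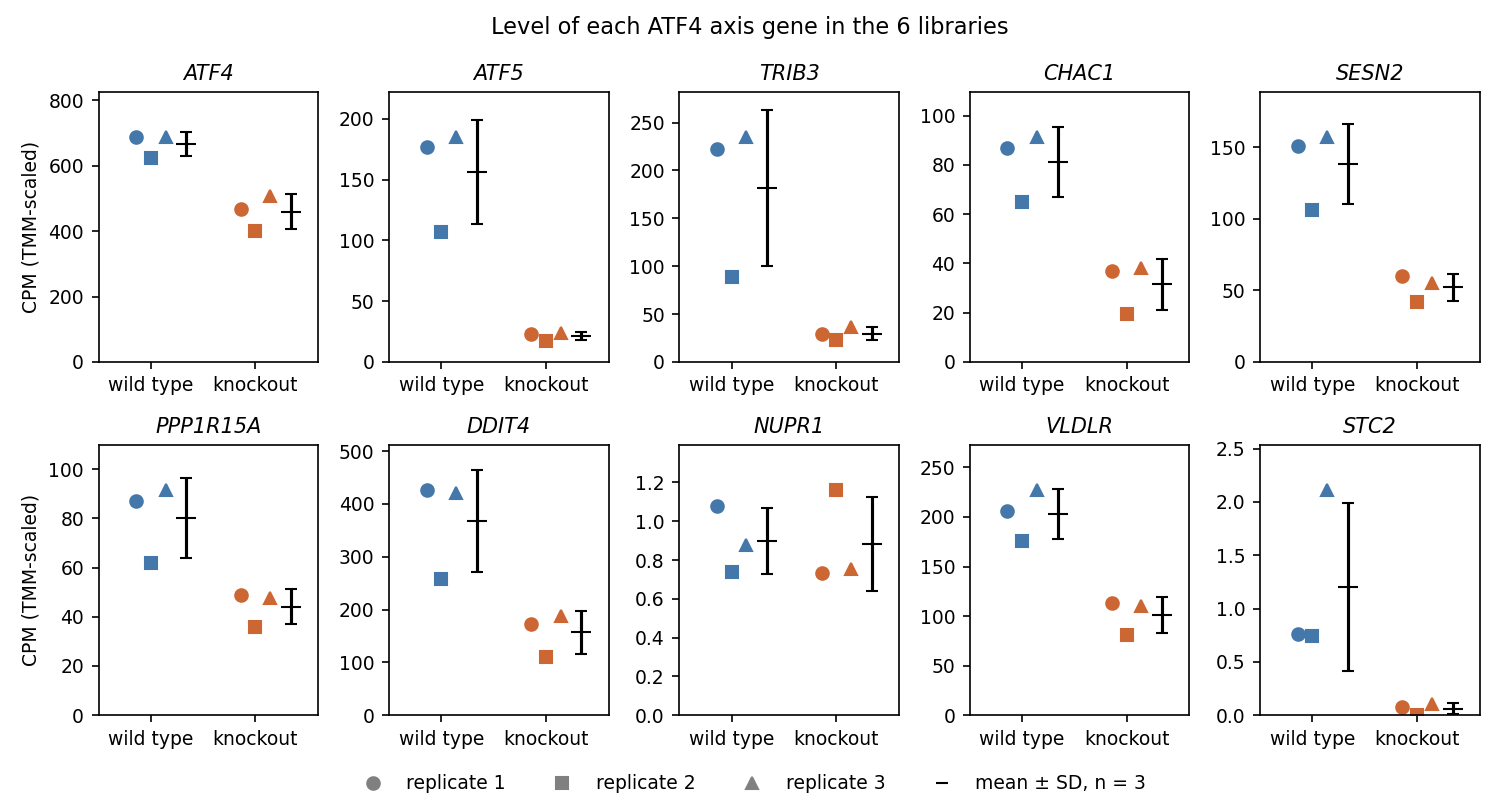
CPM of each gene on a linear axis from 0, with 1 point per library (shape gives the replicate) and the mean ± SD of 3 libraries per group as a bar. In 9 of the 10 panels all knockout points lie below all wild-type points, and in the NUPR1 panel the groups overlap.

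Compared per length, as the authors' deposited TPM summed per gene, ATF4 was the most abundant member in wild type at 449 ± 24.3 TPM (SD, n = 3), followed by DDIT4 at 232 ± 60.2. TRIB3 (86.6 ± 38.3 TPM), ATF5 (82.4 ± 23.2 TPM) and CHAC1 (57.8 ± 10.9 TPM) came next and overlapped in their spread. VLDLR (45.5 ± 6.90 TPM), SESN2 (36.4 ± 7.36 TPM) and PPP1R15A (32.4 ± 6.42 TPM) followed, with neighbours in this order not separated beyond their SDs. STC2 (0.588 ± 0.55 TPM) and NUPR1 (0.146 ± 0.0299 TPM) were barely detected. Most of the STC2 value came from the short STC2-202 (0.407 ± 0.447 TPM), which held 2.4, 0 and 6.5 reads across wild-type replicates 1 to 3. STC2-201 stood at 0.181 ± 0.111 TPM, so the order of STC2 and NUPR1 is not settled. In knockout ATF4 (321 ± 29.3 TPM) and DDIT4 (104 ± 24.9 TPM) kept the highest levels. ATF5 went from the fourth place to the eighth, at 12.2 ± 1.46 TPM, and TRIB3 stood at 14.7 ± 2.76 TPM beside SESN2 at 14.3 ± 2.42 TPM.

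ATF4, the central transcription factor of the response, lies on chromosome 22 (39519695 to 39522685, plus strand, GRCh38). Its level was 688, 623 and 688 CPM across wild-type replicates 1 to 3, against 469, 401 and 507 CPM across those of the knockout, the order used for all values below. The groups did not overlap, but the lowest wild-type library was only 1.23-fold above the highest knockout library. ATF4 fell by 0.54 on the log2 scale (SE 0.10, 95% interval -0.76 to -0.31, edgeR adjusted p = 0.0144), a level 1.45-fold lower. Of all tested genes, 7.33% had a more negative log2 fold change than ATF4. Processed pseudogenes of ATF4 could take some of its reads, and the 3 of them in the table held 0 to 6 reads in any library.

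The fall of ATF4 was seen in its 2 main spliced transcripts. All 3 listed transcripts share the same 1053 coding bases and differ in their 5′ part. ATF4-202 held 76.9 ± 1.0% of the gene's reads in wild type against 75.9 ± 1.3% in knockout, with 512 ± 22.4 and 349 ± 45.9 CPM. ATF4-203, which starts farther upstream, went from 132 ± 16.5 to 87.9 ± 9.66 CPM. ATF4-201 keeps a 602-base intron of the 5′ leader (chromosome 22, 39520752 to 39521353) that ATF4-202 removes. It stood at 22.5, 22.7 and 18.9 CPM in wild type against 22.2, 23.8 and 21.5 CPM in knockout. The groups of this intron-keeping form overlapped, and its share of the gene was 3.2 ± 0.5% in wild type against 4.9 ± 0.9% in knockout. The division of reads among transcripts is an estimate, so transcript values are given throughout with no test.

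ATF5, a bZIP factor translated under stress in the same way as ATF4, lies on chromosome 19 (49928702 to 49933935, plus strand). It stood at 177, 107 and 185 CPM in wild type against 22.8, 17.6 and 23.8 CPM in knockout. Wild-type replicate 2 was the lowest of its group, and it was still 4.51-fold above the highest knockout library. ATF5 fell by 2.87 (SE 0.23, 95% interval -3.43 to -2.32, edgeR adjusted p = 0.00731), a level 7.32-fold lower. It ranked 7th of the 13131 tested genes by p, and 11 genes had a more negative log2 fold change. The intervals of ATF4 and ATF5 did not overlap, and the difference between their falls was not itself tested.

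Both main ATF5 transcripts fell, although their annotated starts differ. ATF5-201 went from 115 ± 29.5 to 14.7 ± 2.12 CPM, and ATF5-202 from 40.4 ± 12.9 to 6.23 ± 1.32 CPM. Their shares of the gene were 73.7 ± 1.7% and 25.6 ± 1.6% in wild type against 69.0 ± 1.8% and 29 ± 2.0% in knockout. The minor ATF5-203, with its own start downstream, had 0, 1.7 and 1.9 reads in wild type against 4.1, 6.5 and 4.3 in knockout, too few to read a change from. ATF5 shares 626 of its 2954 exon bases with NUP62, a nuclear pore gene on the opposite strand, and whether the counting used strand is something the sources used here do not give. NUP62 itself stood at 222 ± 13.7 CPM in wild type against 245 ± 19.1 CPM in knockout and was not called (log2 fold change 0.14, adjusted p = 0.234). ATF5 also shares 75 bases with IL4I1, which held 17 to 35 reads per library, and 74 with the microRNA gene MIR4751, which was not analysed here.

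TRIB3, a pseudokinase that binds AKT and restrains ATF4, lies on chromosome 20 (362835 to 397559, plus strand). Among the abundant members it had the largest ratio of highest to lowest wild-type library (2.66-fold), with 222, 88.4 and 235 CPM in wild type against 28.9, 22.9 and 36.2 CPM in knockout. Wild-type replicate 2 was the lowest of its group, and 2.44-fold above the highest knockout library. TRIB3 fell by 2.63 (SE 0.38, 95% interval -3.54 to -1.72, edgeR adjusted p = 0.00997), a level 6.19-fold lower, and its log2 fold change became -2.96 with wild-type replicate 2 left out. TRIB3-201 held 96.9 ± 0.4% of the reads in wild type against 95.8 ± 0.7% in knockout. The minor TRIB3-202 had 16.7, 7.4 and 17.5 reads in wild type and none in any knockout library.

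PPP1R15A, also called GADD34, directs protein phosphatase 1 to eIF2 and so ends the stress signal. It lies on chromosome 19 (48872392 to 48876057, plus strand) and stood at 87.2, 61.7 and 91.4 CPM in wild type against 48.9, 35.9 and 47.6 CPM in knockout. The groups were separated by 1.26-fold, less than the 1.48-fold range within wild type. PPP1R15A fell by 0.86 (SE 0.18, 95% interval -1.28 to -0.44, edgeR adjusted p = 0.0205), a level 1.82-fold lower. PPP1R15A-201 held 99.0 ± 0.3% of its reads in wild type. Its constitutive relative PPP1R15B, which serves the same phosphatase without stress, stood at 172 ± 4.65 CPM in wild type against 151 ± 15.2 CPM in knockout and did not pass (log2 fold change -0.19, SE 0.08, adjusted p = 0.142).

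SESN2 and DDIT4 both restrain the growth kinase complex mTORC1, SESN2 as a leucine sensor and DDIT4, also called REDD1, through the TSC complex. SESN2 (chromosome 1, 28259527 to 28282491, plus strand) stood at 151, 106 and 157 CPM in wild type against 60.0, 41.6 and 54.9 CPM in knockout. Its groups were 1.76-fold apart at the nearest libraries. SESN2 fell by 1.4 (SE 0.19, 95% interval -1.85 to -0.95, edgeR adjusted p = 0.00914), a level 2.64-fold lower, and it has a single listed transcript.

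DDIT4 (chromosome 10, 72273920 to 72276036, plus strand) stood at 426, 257 and 421 CPM in wild type against 172, 110 and 188 CPM in knockout. The lowest library of each group was replicate 2, and the groups were 1.36-fold apart at the nearest libraries. DDIT4 fell by 1.23 (SE 0.26, 95% interval -1.85 to -0.62, edgeR adjusted p = 0.0208), a level 2.35-fold lower. Its protein-coding transcript DDIT4-201 went from 350 ± 92.0 to 147 ± 39.1 CPM. DDIT4-203, which keeps a 96-base intron (72274061 to 72274156), went from 15.7 ± 4.00 to 8.33 ± 2.56 CPM, and DDIT4-202, which keeps 214 bases that DDIT4-201 splices out, from 2.18 ± 0.429 to 0.975 ± 0.233 CPM. Unlike in ATF4, the intron-keeping forms of DDIT4 had groups that did not overlap, with all knockout libraries lower. DDIT4 shares 847 exon bases with the antisense gene DDIT4-AS1, which was not analysed here.

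CHAC1, which degrades glutathione, lies on chromosome 15 (40952962 to 40956519, plus strand) and carries the composite motif printed above. It stood at 87.0, 65.1 and 91.3 CPM in wild type against 36.9, 19.5 and 38.2 CPM in knockout. The groups were 1.70-fold apart at the nearest libraries, and knockout replicate 2 was 1.96-fold below knockout replicate 3. CHAC1 fell by 1.36 (SE 0.26, 95% interval -1.99 to -0.74, edgeR adjusted p = 0.0172), a level 2.57-fold lower. CHAC1-204 has 792 annotated coding bases and CHAC1-201 has 531. A stretch of 135 coding bases of CHAC1-204 (40955415 to 40955549) is absent from CHAC1-201, and it is not their whole coding difference. CHAC1-204 and CHAC1-201 held like shares of the gene in both groups. The shares were 84.5 ± 2.7% and 13.7 ± 1.2% in wild type against 86.3 ± 1.6% and 13.7 ± 1.6% in knockout. Reads of CHAC1-203 appeared in wild-type replicate 3 alone, at 139.

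VLDLR, a receptor for lipoproteins and reelin, lies on chromosome 9 (2621834 to 2660053, plus strand). It stood at 206, 176 and 227 CPM in wild type against 113, 80.6 and 110 CPM in knockout, 1.57-fold apart at the nearest libraries. VLDLR fell by 1.01 (SE 0.15, 95% interval -1.36 to -0.66, edgeR adjusted p = 0.0101), a level 2.01-fold lower. It shares 738 exon bases with VLDLR-AS1 on the opposite strand, which was not analysed here.

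The main VLDLR transcripts differ by exon 16, which encodes a stretch rich in sites for O-linked sugars. VLDLR-203 contains it and VLDLR-202 skips it, and its 84 coding bases are printed here from the GENCODE 29 transcript, with the codons for serine or threonine in capitals.
VLDLR exon 16, chr9:2651415-2651498, plus strand: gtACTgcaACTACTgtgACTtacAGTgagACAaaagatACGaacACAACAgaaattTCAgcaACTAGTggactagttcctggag
Of the 27 complete codons of the exon, 12 (44.4%) are for serine or threonine, against 116 of 873 (13.3%) over the whole coding sequence of VLDLR-203. VLDLR-202 went from 111 ± 13.4 to 54.7 ± 7.42 CPM and VLDLR-203 from 90.0 ± 11.2 to 44.9 ± 10.7 CPM. Per length, the form without the exon made up 79.4, 78.4 and 78.3% of the TPM of both in wild type against 78.3, 81.1 and 76.8% in knockout. The groups overlapped, so both forms went down together. The annotated forms also differ in their last exon, of 648 bases in VLDLR-202 and 6221 bases in VLDLR-203, so this share mixes exon skipping with the choice of 3′ end.

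**Figure D2:**
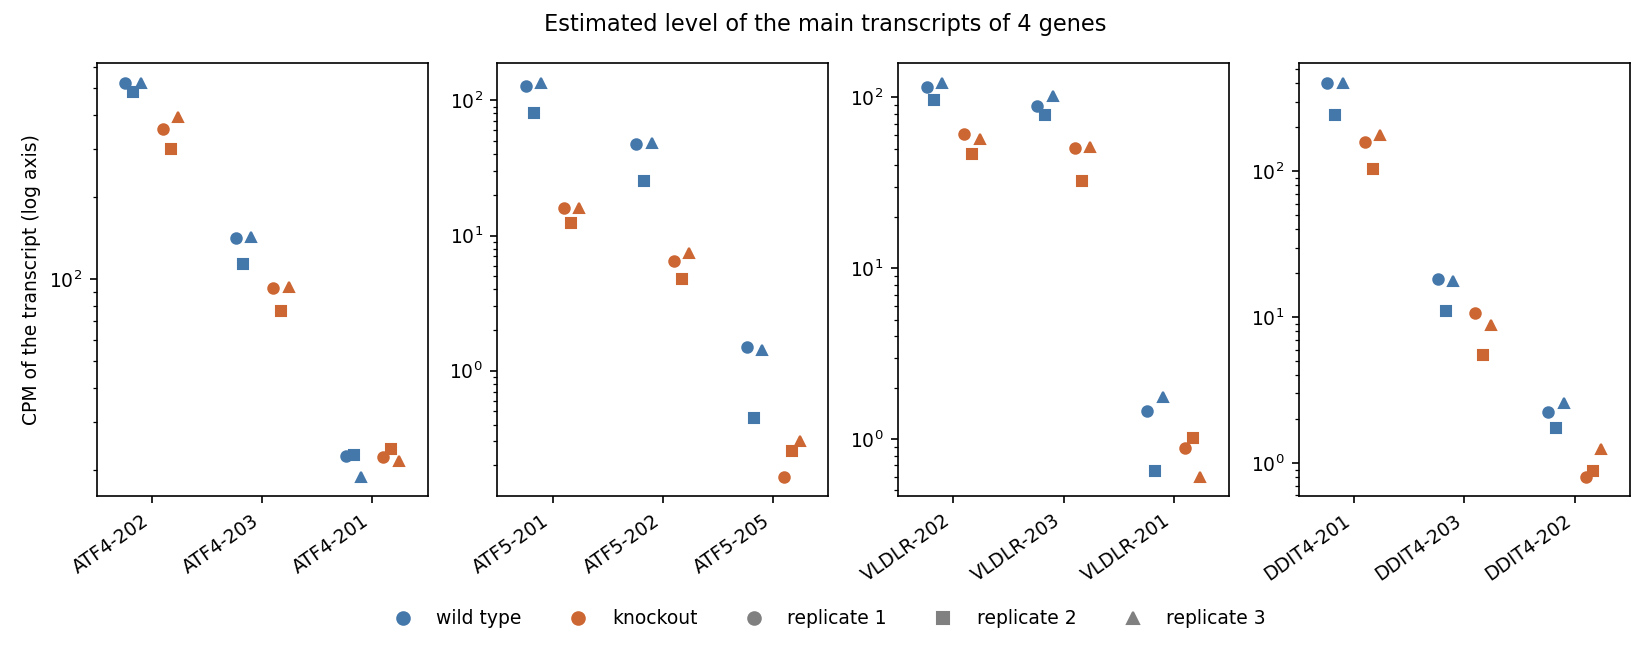
CPM of the 3 most abundant listed transcripts of ATF4, ATF5, VLDLR and DDIT4 on log axes, 1 point per library (colour gives the group, shape the replicate). The intron-keeping ATF4-201 overlaps between the groups at 18.9 to 23.8 CPM, and VLDLR-201 overlaps too, while each other transcript shown is lower in all knockout libraries.

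STC2, a secreted glycoprotein that inhibits the growth factor protease PAPP-A, lies on chromosome 5 (173314713 to 173329503, minus strand). It had 21, 21 and 58 reads in wild type against 2, 0 and 3 reads in knockout. All wild-type libraries were above all knockout libraries, and wild-type replicate 3 held more STC2 reads than both other wild-type libraries together. STC2 fell by 4.22 (SE 0.79, 95% interval -6.09 to -2.34, edgeR adjusted p = 0.0159). The ratio of summed reads, scaled for library size, was 19.8-fold, with an exact binomial 95% interval of 8.19 to 62.2 that covers counting error only. STC2-201 held 18.6, 21 and 51.5 of the wild-type reads. With wild-type replicate 3 left out, STC2 had a log2 fold change of -3.54 and an edgeR adjusted p of 0.0544. With the effective length of its transcripts as an offset the values were -4.66 and an adjusted p of 0.0823.

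NUPR1, a small chromatin protein induced by stress, lies on chromosome 16 (28532708 to 28539174, minus strand). It had 30, 21 and 24 reads in wild type against 19, 32 and 22 in knockout, and the groups overlapped. The log2 fold change was -0.02 (SE 0.30, edgeR adjusted p = 0.967). Its 95% interval of -0.73 to 0.68 allows a level from 1.66-fold lower to 1.61-fold higher. A fall of the size seen in ATF4 was therefore not excluded. All of its reads were assigned to NUPR1-201, whose last exon spans 4962 bases, and none to the 550-base NUPR1-202.

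**Figure D3:**
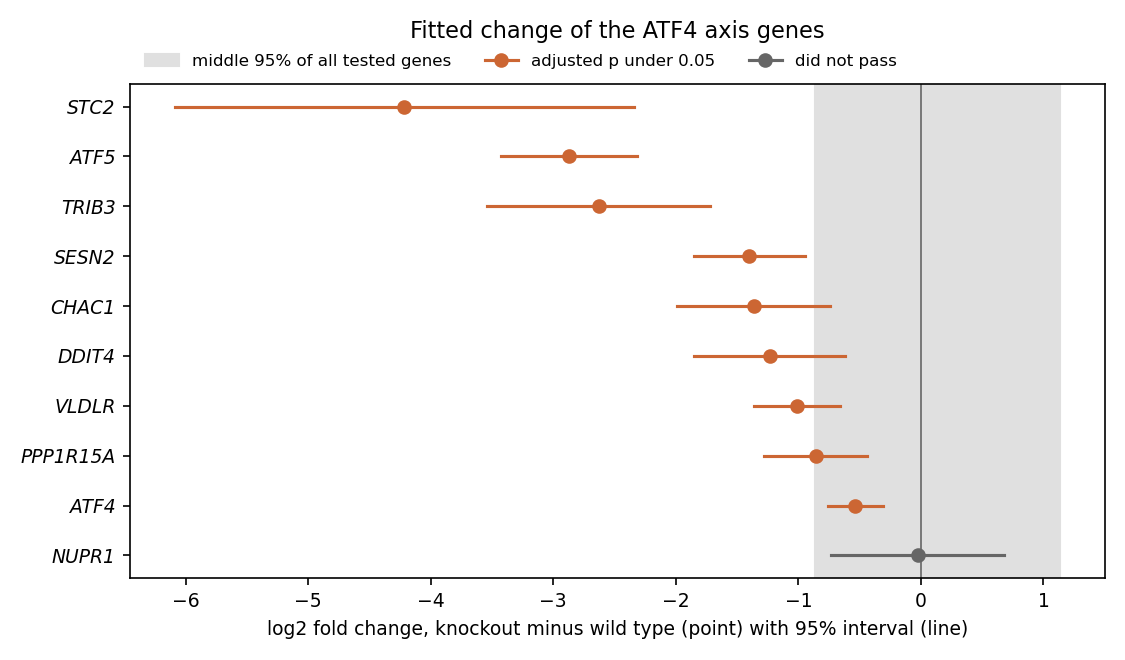
Fitted log2 fold change of each gene, knockout minus wild type, with its 95% interval. The grey band holds the middle 95% of all tested genes. The intervals of ATF5, TRIB3, STC2 and SESN2 lie wholly left of the band, and that of NUPR1 spans 0.

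Within each group the members also moved together across the replicates. Wild-type replicate 2 was the lowest wild-type library for 10 of the 10 members, as it was for 39.2% of all tested genes and 74.7% of the genes called lower. Its log2 CPM lay below the mean of the other wild-type libraries by between 0.14 for ATF4 and 1.37 for TRIB3, against a median of 0.00 over all tested genes. Knockout replicate 2 was the lowest knockout library for 9 members, all but NUPR1, as it was for 34.8% of tested genes and 49.8% of those called lower. CHAC1 lay 0.95 and DDIT4 0.71 below the mean of the other knockout libraries in log2 CPM. ATF3 did not have the same order, since it was lowest in wild-type replicate 2 (16.2 CPM against 22.9 and 23.0) but highest in knockout replicate 2 (8.33 CPM against 5.62 and 4.52). Without wild-type replicate 2 the same 9 members were called, with log2 fold changes from -0.59 for ATF4 to -4.47 for STC2.

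**Figure D4:**
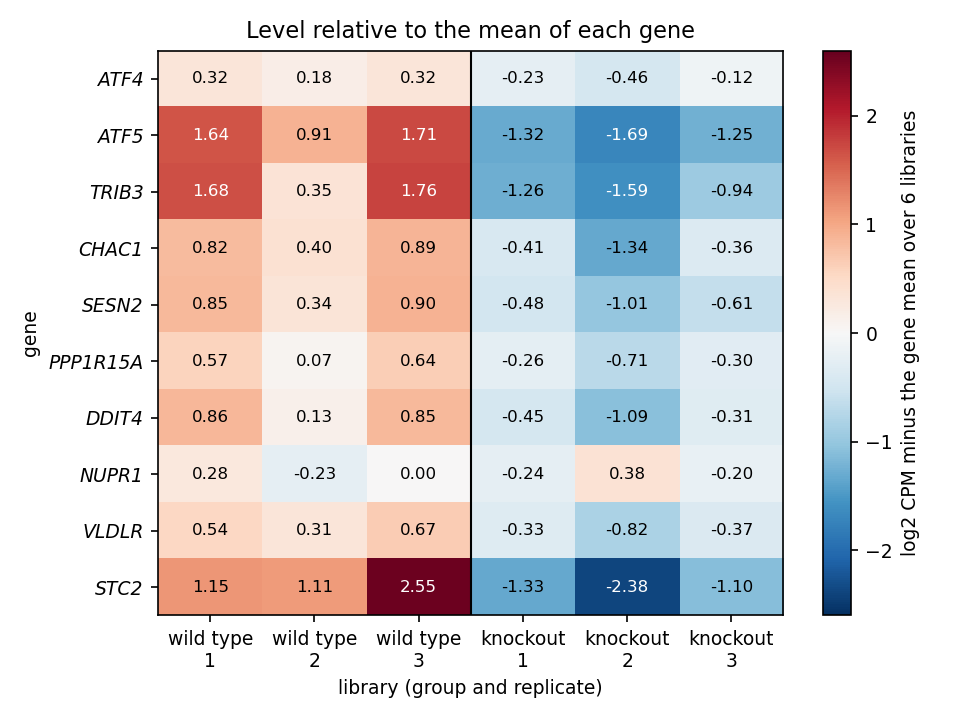
Log2 CPM of each gene in each library, less the mean of that gene over the 6 libraries (colour and printed value). Wild-type replicate 2 is the palest of the wild-type columns for nearly all genes. Knockout replicate 2 has the lowest value of the knockout columns for every gene except NUPR1, where it has the highest.

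By a distance rule, the 5 genes outside the lists whose profile over the 6 libraries was nearest to the mean profile of the members were ARSG, JAG1, FLRT1, PAG1 and SNHG32. The measure was the root mean square difference of mean-centred log2 CPM, and it was 0.142 to 0.192 for these genes, against a median of 0.813 over genes with a mean of at least 1 CPM. The members themselves ranged from 0.0875 for SESN2 to 0.951 for STC2. JAG1, a Notch ligand, fell by 1.69 (SE 0.27, edgeR adjusted p = 0.0116), and SNHG32 fell by 1.16 (SE 0.21, adjusted p = 0.0138). These genes were picked for their likeness, so their falls are a description.

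The other genes of the pathway were read from 8 lists of 136 genes, of which 128 were tested. Counting each gene once, 54 fell and 8 rose (42.2% and 6.25% of those tested), against 9.72% and 11.4% of all tested genes. The lists hold ATF3 itself and leave out the 10 members. The choice of lists was also made with earlier results of these data known, so these shares are a description.

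The falls were most numerous among genes of amino acid supply. Of 11 tested amino acid transporters 10 fell and none rose, with a median log2 fold change of -0.73. The heteromeric exchanger subunits SLC7A5 and SLC3A2 fell by 1.25 (SE 0.10) and 0.84 (SE 0.08), and the cystine transporter SLC7A11 fell by 2.13 (SE 0.20). SLC36A4 alone did not pass (-0.16, edgeR adjusted p = 0.424). Of 15 amino acid and one-carbon enzymes 13 fell and none rose, with a median of -0.83. ALDH18A1 and ALDH1L2 did not pass. ALDH1L2 was near 0 in replicate 3 of each group, at 97.8, 115 and 0.146 CPM in wild type against 45.8, 44.1 and 0.343 CPM in knockout. ASNS, which makes asparagine, fell by 1.09 (SE 0.10), and the serine pathway enzymes PHGDH and PSAT1 fell by 0.83 (SE 0.09) and 1.13 (SE 0.13). Of 14 genes of tRNA charging and export 12 fell and none rose, with a median of -0.58, among them GARS1 (-0.82), IARS1 (-0.59) and SARS1 (-0.77). CARS1 and VARS1 did not pass. The highest VARS1 library was 7.43-fold above the lowest within wild type and 5.09-fold within knockout, and the reason was not tested.

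Another list held eIF2, its kinases, phosphatases and exchange factor, and related factors such as EIF2A, EIF2D and QRICH1. Of its 24 tested genes 6 fell (25.0%, against 9.72% of all tested genes), 2 rose and 16 did not pass, with a median of -0.14. In 11 of the 24 every knockout library lay below every wild-type library, and in 5 every knockout library lay above. Over all tested genes these shares were 21.4% and 22.2%. EIF2S2, the beta subunit of eIF2, fell by 0.56 (SE 0.06, edgeR adjusted p = 0.0081). EIF2A, which is not a subunit of eIF2, fell by 0.56 (SE 0.08). IMPACT, an inhibitor of the kinase GCN2, fell by 2.01 (SE 0.24), from 16.7 ± 4.48 to 4.16 ± 0.764 CPM. The 4 eIF2 kinases, which the naming rule did not select and which were added with their values known, did not pass. Their log2 fold changes were 0.12 for EIF2AK1 (adjusted p = 0.198), -0.33 for EIF2AK2 (0.32), -0.09 for EIF2AK3 (0.614) and -0.01 for EIF2AK4 (0.983). A kinase's mRNA does not measure its activity.

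Among 15 tested ATF4 partners and related bZIP factors 8 fell, including ATF3 itself, and 2 rose, with a median of -0.33. NFE2L1, a regulator of proteasome genes, fell by 0.59 (SE 0.09), and CEBPG, a dimer partner of ATF4, fell by 0.69 (SE 0.11). Among 16 other tested stress effectors 4 fell, 2 rose and 10 did not pass, with a median of -0.26. EIF4EBP1, an inhibitor of cap-dependent translation, fell by 0.65 (SE 0.09), the chloride channel gene CLIC4 fell by 0.57 (SE 0.10), and the hydroxylase gene JMJD6 rose by 0.68 (SE 0.10). GDF15 and FGF21, secreted stress hormones, had means under 0.15 CPM in each group and were not tested. Of the 25 tested mTORC1 sensing genes, which act with SESN2 and DDIT4, SEH1L fell by 0.27 (SE 0.05) and LAMTOR2 rose by 0.47 (SE 0.13), 23 did not pass, and the median was 0.09. The log2 fold changes of this list ranged from -0.47 to 1.75, and the genes at both ends did not pass.

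Of 9 tested paralogs of the members, 0 were called lower and 1, SESN1, was called higher, against 9.72% and 11.4% of all tested genes. With so few genes these shares are near the background. In 3 of the 9 every knockout library lay below every wild-type library, and in 1 every knockout library lay above. Over all tested genes the shares were 21.4% and 22.2%. SESN1, a sestrin best known as a p53 target, stood at 28.7 ± 4.49 CPM in wild type against 55.4 ± 19.6 CPM with ATF3 edited (log2 fold change 0.95, SE 0.25, edgeR adjusted p = 0.0377), while SESN2 fell. SESN3 had a log2 fold change of 0.66 (adjusted p = 0.189). TRIB1 (0.32, adjusted p = 0.214) and TRIB2 (-0.19, 0.354), relatives of TRIB3, did not pass. CHAC2 (-0.46, adjusted p = 0.0656) and the lipoprotein receptor genes LRP8 (-0.29, 0.083) and LRP1 (1.57, 0.111) did not pass either. STC1 and DDIT4L had no reads in any library. Differences between a member and its paralog were not themselves tested.

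**Figure D5:**
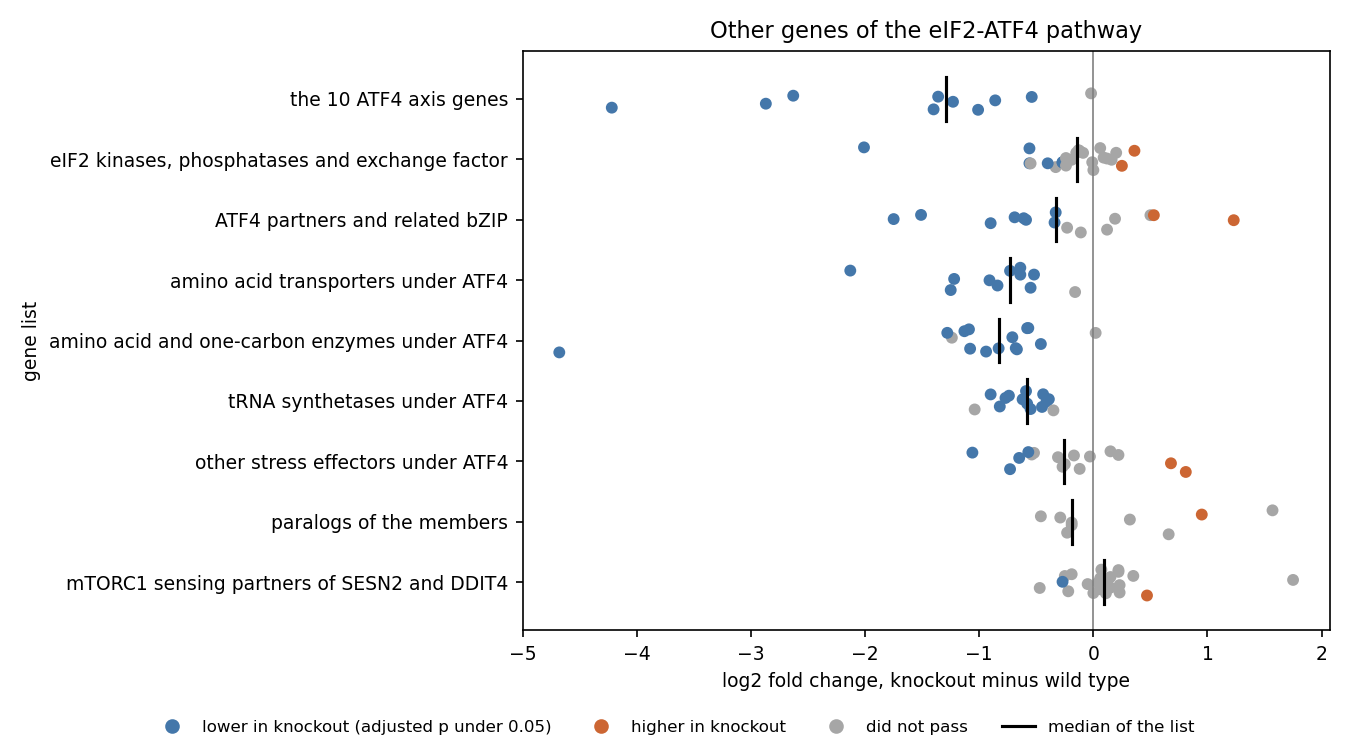
Log2 fold change (knockout minus wild type) of every tested gene of each list, 1 point per gene, with the list's median as a black line; vertical scatter only separates points. Points of amino acid transporters, enzymes and tRNA charging lie mostly at called negative values. Those of mTORC1 sensing have a median of 0.09 and range from -0.47 to 1.75.

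The calls of the members depended on the wild-type libraries. Without wild-type replicate 1 the edgeR test called 0 of the 10 members and 0 genes in all (smallest adjusted p 0.0503), while 9 members and 3496 genes had an unadjusted p under 0.05. At that setting DESeq2 called 8 members lower and limma-voom called 0, both runs added after the data were seen. Without wild-type replicate 3 the edgeR test called 4 members, ATF5, TRIB3, SESN2 and VLDLR. Without knockout replicate 1, DDIT4 and STC2 were not called, and without knockout replicate 2, PPP1R15A was not called. The sign of each of the 9 falls was the same in every one of these fits.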

How the data were processed

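The authors deposited 1 Salmon table per library, with the estimated count of reads, the TPM and the effective length of 177456 transcripts, per the file headers. Per the submitters' processing notes, the tools were FastQC 0.11.9 and Salmon 1.6.0 and the build was hg38. The kit was Illumina Stranded mRNA Prep, per the labels; the sources used here do not give library type, strand setting or transcriptome release. A transcript's deposited effective length did not differ between libraries.

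Transcripts were joined by identifier to GENCODE 29 (GRCh38). Of these 167027 matched, and the rest held 3.59 to 3.82% of reads and were left out. The version of the identifier was ignored, and 155671 transcripts had the same version. Some deposited lengths differ from GENCODE 29, as for TRIB3-201 (2095 against 2499 bases) and VLDLR-203 (9213 against 9163 bases). The exons, introns and starts described are those of GENCODE 29 and need not be those quantified. Estimated counts were summed per gene and rounded. edgeR 4.0.16 (R 4.3.3; TMM factors, filterByExpr with a minimum of 10 reads, quasi-likelihood test on group, Benjamini-Hochberg adjustment over all 13131 tested genes) gave fold changes and p-values. CPM are TMM-scaled; log2 CPM used a prior count of 2. Intervals are 95%. Deposited TPM were used as values alone. DESeq2 1.42.0 and limma 3.58.1 were alternatives, with other factors, no filter, a replicate block, a length offset, protein-coding transcripts alone and each library left out. The fit was also run on simulated counts with the same dispersion for all genes and no replicate effect. That run was not used to support the calls above.

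The members and lists were chosen with earlier results of these data known. Named are all members with transcripts of at least 5% of their gene, ATF3, up to 3 called genes per list with the smallest p, tested paralogs (1 is not reported here), genes sharing exons with a member, and the 5 nearest profiles. Minor transcripts below 5%, ALDH18A1, ALDH1L2, CARS1 and VARS1 were named after their values were seen.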

Additional observations from a re-analysis of the deposited data

How the results depend on the processing

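Leaving out 1 library at a time, the log2 fold changes ranged from -0.62 to -0.45 for ATF4, -3.09 to -2.73 for ATF5, -2.96 to -2.40 for TRIB3, -1.54 to -1.11 for CHAC1, -1.56 to -1.26 for SESN2, -1.02 to -0.73 for PPP1R15A, -1.44 to -1.03 for DDIT4, -1.10 to -0.87 for VLDLR, -4.85 to -3.54 for STC2 and -0.27 to 0.13 for NUPR1. Called counts ranged from 0 to 9 members, 0 to 1370 higher and 0 to 1388 lower genes of all tested, and 0 to 8 higher and 0 to 55 lower genes of the pathway lists. With fewer libraries the fit has fewer residual degrees of freedom. With the effective length offset 722 genes were higher and 661 lower, 5 pathway genes were higher, and STC2 (-4.66, adjusted p = 0.0823) lost its call; the cause was not tested. DESeq2 gave STC2 no adjusted p. With limma-voom without wild-type replicate 1, a setting chosen after seeing the data, the calls were 0 higher and 5 lower genes of all tested, 0 and 1 in the pathway lists, and no member passed: ATF4 (-0.52), ATF5 (-2.73), TRIB3 (-2.32), CHAC1 (-1.35), SESN2 (-1.32), PPP1R15A (-0.78), DDIT4 (-1.11), VLDLR (-1.0) and STC2 (-4.41). In the other full-library alternatives, 9 members were called (8 with DESeq2).

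The replicate numbers were not taken to pair the libraries, since they are not stated to mark a shared batch. Same-numbered deviations correlated at -0.0924, 0.106 and 0.196 for replicates 1 to 3. Knockout replicates 2 and 3 correlated best with their own number, and knockout replicate 1 did not. With 3 libraries per group these correlations cannot decide whether a batch was shared. With the replicate block 1225 genes were higher and 1093 lower and the same 9 members were called. Their unadjusted edgeR p-values were smaller with the block, as for DDIT4 (4.24e-06 against 0.00209) and ATF4 (0.000278 against 0.000848). Replicate 2 was the lowest library of both groups for these 9. Whether the replicate numbers mark a shared batch was not tested. Depth limits NUPR1 and STC2, with at most 32 and 58 reads per library.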
